A study of Mus musculus with 43 samples.

Results

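The genes described here are 9 genes of growth arrest and stress responses: Cdkn1a, Ccng1, Mdm2, Sesn1, Gadd45a, Gadd45b, Gadd45g, Ddit4 and Trib3. They are 9 of the 42349 entries of the table, found by gene symbol, and each had 1 entry that passed the quality status in all 16 groups. The list was chosen by measured values as well as by function: Cdkn1a had been seen to be higher in KO_AL than in WT_AL skeletal muscle, and Ddit4 to be lower in WT_DR than in WT_AL skeletal muscle. The differences of the 9 genes in KO_AL against WT_AL and in WT_DR against WT_AL are therefore given as a description, with no p value. The comparisons of KO_DR with WT_DR and of KO_DR with KO_AL were tested, except for Ddit4 in the first and Cdkn1a in the second. Each of these holds a genotype and diet of the difference that chose the gene, and the exception was made in every tissue. The authors had also counted Cdkn1a as up-regulated in KO_AL liver.

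RNA was sequenced from brain, liver, skeletal muscle and white adipose tissue of the inguinal depot (WAT) of female mice at 15 months of age. WT mice (Irs1+/+) and KO mice (Irs1-/-, a global deletion of insulin receptor substrate 1) were fed ad libitum (AL) or given 30% dietary restriction (DR), introduced in steps from 10 weeks of age and kept for 12 months. The labels list 43 libraries in 16 groups, 2 in each WT_AL group and in WT_DR WAT and 3 in every other group. The authors' software gave 1 value per gene and group in FPKM (fragments per kilobase of transcript and of sequencing depth) with a 95% interval, so sequencing depth is unknown and the spread among mice could not be computed. Irs1 FPKM was below that of the WT group on the same diet in 1 of 8 comparisons, WAT under DR, and a single value per gene cannot separate its exons, so groups are named by their labels throughout. The 10 markers of liver, of skeletal muscle and of adipocytes, and 10 neuron markers in brain, were each at an FPKM of at least 1 in every group of their own tissue.

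Cdkn1a encodes p21, an inhibitor of cyclin-dependent kinases and the best known transcriptional target of p53. Ccng1 (cyclin G1), Mdm2 (the ubiquitin ligase that limits p53) and Sesn1 (sestrin 1, which restrains mTORC1) are also p53 targets, and the GADD45 proteins bind p21, PCNA and the kinase MAP3K4. Ddit4 (REDD1) inhibits mTORC1 through the TSC complex and is induced by glucocorticoids, hypoxia and energy stress, while Trib3 is a pseudokinase induced by ATF4 in the integrated stress response and by fasting in liver. Cdkn1a itself also responds to FOXO factors, glucocorticoids and feeding state in liver and muscle, without damage to DNA.

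The promoter sequences below show what the genes share and where they differ near their starts, since a single FPKM per gene cannot tell apart the starts of Cdkn1a. They are the bases before the start, 5′ to 3′ on the gene's strand, up to the first base of an annotated exon, from RefSeq on GRCm38.p6. Capitals mark matches to a p53 half-site, the E-box CACGTG, the GC box GGGCGG, the CCAAT box, TATAAA or the composite C/EBP-ATF core TGATGNAAN, on either strand, and to a pair of p53 half-sites in tandem with at most 1 of 20 bases off (the runs of 20 capitals in Cdkn1a and Ccng1), and marked motifs may overlap. Both Cdkn1a starts are shown because this gene carried most of the differences, Ccng1 because it holds the same kind of p53 site, Ddit4 because it is the other gene that differed, and Gadd45b with Gadd45g because they share motifs.
Cdkn1a, first start, chr17:29090729-29090975, plus strand: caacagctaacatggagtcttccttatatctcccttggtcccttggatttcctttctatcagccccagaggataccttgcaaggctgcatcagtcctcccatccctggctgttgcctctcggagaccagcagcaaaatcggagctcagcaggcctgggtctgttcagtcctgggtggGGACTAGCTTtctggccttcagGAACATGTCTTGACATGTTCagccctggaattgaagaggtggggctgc
Cdkn1a, second start, chr17:29093519-29093768, plus strand: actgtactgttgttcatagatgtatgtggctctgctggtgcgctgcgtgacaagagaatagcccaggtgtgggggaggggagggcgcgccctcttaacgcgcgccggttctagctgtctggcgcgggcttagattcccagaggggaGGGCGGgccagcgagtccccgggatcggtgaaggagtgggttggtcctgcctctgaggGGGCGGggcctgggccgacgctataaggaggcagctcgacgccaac
Ccng1, chr11:40755312-40755536, minus strand: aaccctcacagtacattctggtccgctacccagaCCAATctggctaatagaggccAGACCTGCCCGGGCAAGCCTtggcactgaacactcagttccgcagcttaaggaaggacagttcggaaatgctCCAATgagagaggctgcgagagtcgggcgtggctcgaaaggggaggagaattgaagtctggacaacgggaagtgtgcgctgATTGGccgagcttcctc
Ddit4, chr10:59951835-59952020, minus strand: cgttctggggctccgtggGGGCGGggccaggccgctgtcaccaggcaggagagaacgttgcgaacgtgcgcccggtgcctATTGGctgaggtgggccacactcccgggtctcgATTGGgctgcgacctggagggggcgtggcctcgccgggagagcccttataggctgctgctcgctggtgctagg
Gadd45b, chr10:80929841-80930072, plus strand: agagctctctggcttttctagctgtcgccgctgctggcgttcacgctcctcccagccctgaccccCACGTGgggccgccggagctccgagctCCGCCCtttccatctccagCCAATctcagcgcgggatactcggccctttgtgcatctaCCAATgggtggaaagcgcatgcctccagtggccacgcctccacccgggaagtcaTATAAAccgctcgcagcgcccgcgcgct
Gadd45g, chr13:51846425-51846674, plus strand: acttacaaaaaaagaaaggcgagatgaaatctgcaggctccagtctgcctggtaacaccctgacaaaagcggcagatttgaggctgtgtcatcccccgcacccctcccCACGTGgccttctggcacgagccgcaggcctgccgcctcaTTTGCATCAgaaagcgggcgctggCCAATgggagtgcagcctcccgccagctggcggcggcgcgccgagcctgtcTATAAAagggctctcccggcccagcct

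All 9 genes were found in the promoter table, with 11 windows of 250 bases before and 50 after a start, since Cdkn1a and Sesn1 have a pair of starts each. A p53 half-site was matched in 5 of the 11 windows, against 8.36% of all 32851 promoter windows. They were the first Cdkn1a start and those of Ccng1, Mdm2, Gadd45a and the second Sesn1 start. A search added after the values were seen, for half-sites in tandem with at most 1 of 20 bases off, matched 2 of the 11 windows and 0.0883% of all. One was the first Cdkn1a start, from -51 to -32 (counted from -1 at the last base before the start), and the other was Ccng1, from -195 to -176. The second Cdkn1a start, which lies inside the gene, held GC boxes and no p53 half-site. The E-box was matched in Gadd45b and Gadd45g only, 2 of 11 windows against 7.15% of all, and these genes also share CCAAT and TATAAA. The GC box was found in 8 of 11 windows (35.7% of all), CCAAT in 8 of 11 (37.4%), TATAAA in 3 of 11 (13.6%) and the C/EBP-ATF core in 2 of 11 (3.95%), Gadd45g before the start and Trib3 after it. The glucocorticoid half-site AGAACA (19.0% of all) and the cAMP response element TGACGTCA (1.79% of all) were matched in none of these windows, which says only that the letters are not there.

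In GENCODE annotation of GRCm38, Cdkn1a lies on chromosome 17 from 29090976 to 29100727 and Ddit4 on chromosome 10 from 59949669 to 59951834. The entry of Gadd45a, which is annotated on chromosome 6 from 67035096 to 67037457, runs 43197 bases past the gene and covers the antisense gene E230016M11Rik. Cdkn1a overlaps the antisense gene AC167363.2 and Sesn1 the same-strand gene 9930024M15Rik. Whether strand was used in the authors' counting is not given in the sources used here, so reads of these neighbours could add to the values of Cdkn1a, Sesn1 and Gadd45a.

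The genes differed in which tissue held them most. Ccng1 had the highest level of the list, a mean over groups of 214 FPKM in skeletal muscle, against 32.6 in WAT, 12.3 in brain and 8.20 in liver. Its muscle values, from 166 to 246 FPKM, lay far above its WAT values (22.9 to 41.1 FPKM), while its brain and liver ranges overlapped. Gadd45a, Gadd45g, Mdm2 and Sesn1 were also highest in skeletal muscle, and there the range over groups did not overlap that of the next tissue. Gadd45a averaged 50.3 FPKM in muscle, 21.1 in WAT, 6.82 in brain and 6.59 in liver. Trib3 had another order, with 12.8 FPKM in liver, 7.01 in WAT, 1.98 in muscle and 0.707 in brain, and only its muscle and brain ranges overlapped. Ddit4 was lowest in liver, at 3.49 FPKM, and its other tissues (21.2 to 26.7 FPKM) overlapped. Cdkn1a had no order of tissues beyond the spread of its groups: its means lay between 23.8 FPKM in brain and 34.4 in muscle, and all neighbouring ranges overlapped. Its highest group exceeded its lowest 25.9-fold in liver, 4.61-fold in brain, 3.69-fold in WAT and 3.30-fold in muscle.

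**Figure D1:**
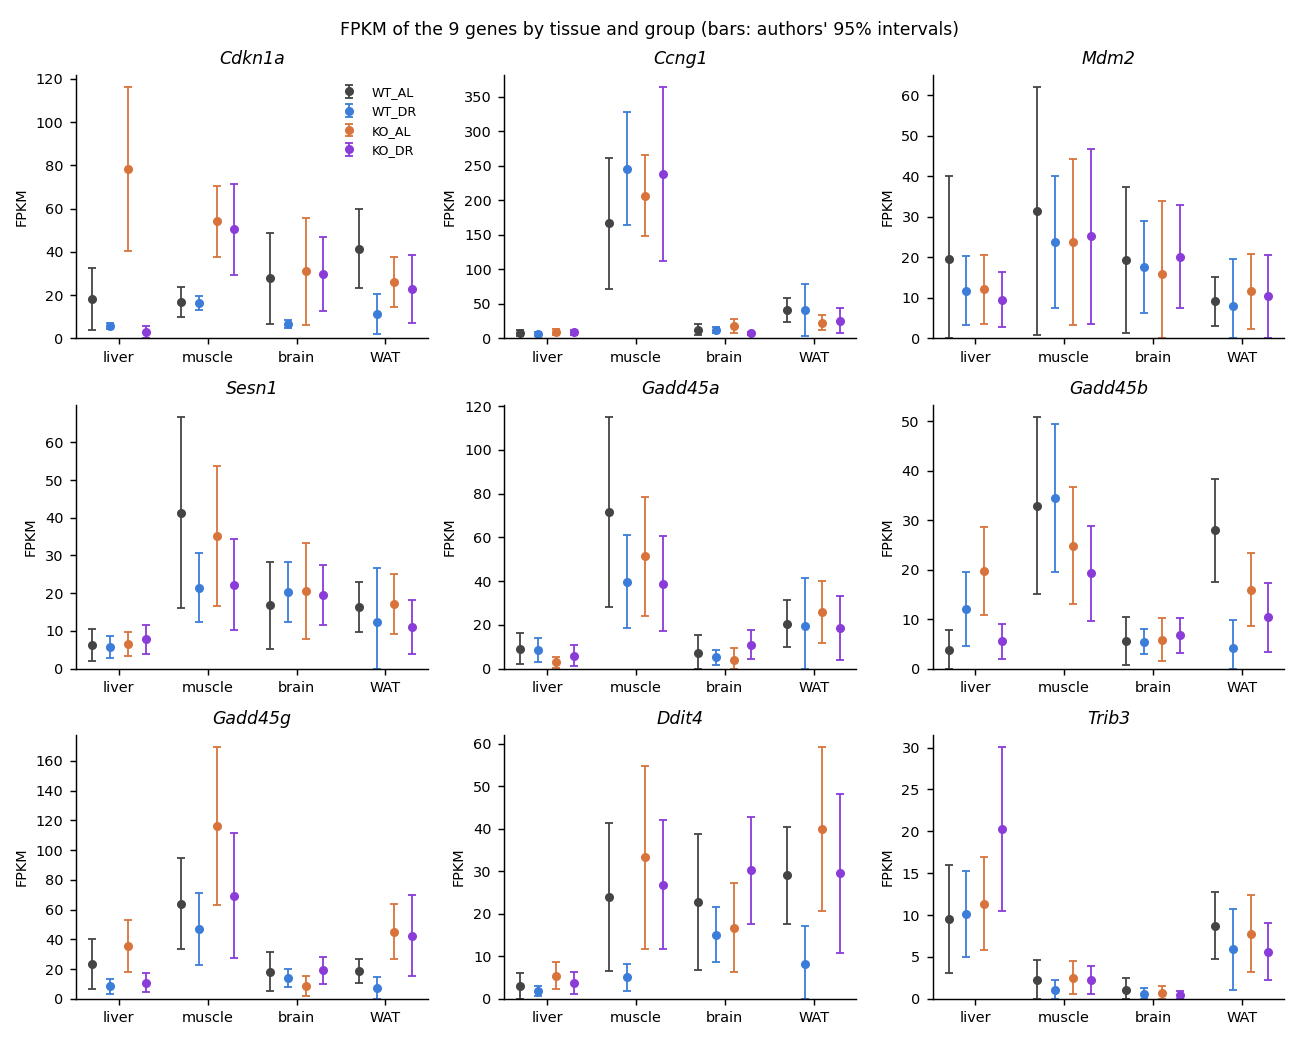
FPKM (vertical axes, linear) of each gene in the 4 groups of each tissue, with points for the group values and bars for the authors' 95% intervals. Ccng1 in skeletal muscle (166 to 246 FPKM) stands above every other value, and Cdkn1a in liver runs from 3.02 FPKM in KO_DR to 78.3 in KO_AL.

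Cdkn1a was high in both KO groups of skeletal muscle and low in both WT groups. In muscle it stood at 16.7 FPKM in WT_AL (95% interval 9.72 to 23.7), 16.4 in WT_DR (13.1 to 19.6), 54.1 in KO_AL (37.7 to 70.4) and 50.4 in KO_DR (29.4 to 71.5). Neither KO interval overlapped either WT interval. KO_DR exceeded WT_DR by 1.62 on the log2 scale (SE 0.33), 3.08-fold, with an adjusted p of 0.00017 in a Wald test on the log2 ratio (two-sided, Benjamini-Hochberg adjusted over every entry tested). Diet made little difference within a genotype, at -0.10 (SE 0.37) in KO mice and -0.03 (SE 0.33) in WT mice, the latter turning to 0.03 relative to the median of all entries. KO_AL exceeded WT_AL by 1.70 (SE 0.37), past the false discovery rate (FDR) of 10%, the difference known when the gene was chosen.

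In brain Cdkn1a was lowest in WT_DR. It had 27.7 FPKM in WT_AL (6.49 to 48.9), 6.72 in WT_DR (4.996 to 8.45), 31.0 in KO_AL (6.40 to 55.6) and 29.9 in KO_DR (12.8 to 47.0). KO_DR was above WT_DR by 2.16 on the log2 scale (SE 0.45), 4.45-fold, with an adjusted p of 0.00078 in the same test. The median of all tested entries in that comparison was 0.23 above 0, and relative to it the difference was 1.93. The WT_DR interval lay below that of KO_DR and overlapped those of WT_AL and KO_AL. WT_DR differed from WT_AL by -2.04 (SE 0.58), not past the FDR, and KO_DR differed from KO_AL by -0.05 (SE 0.71). The difference of these diet effects, KO less WT, was 1.99 (SE 0.91) and is given without a test.

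In liver Cdkn1a took its widest range. Its level was 18.3 FPKM in WT_AL (4.07 to 32.5), 5.54 in WT_DR (4.14 to 6.93), 78.3 in KO_AL (40.4 to 116) and 3.02 in KO_DR (0.228 to 5.82). KO_AL lay above every other liver group without overlap, and both DR groups were low. The KO_DR value was 25.9-fold below KO_AL, a log2 difference of -4.69 (SE 0.75), which passed the FDR. It is given as a description, since a KO_AL difference, seen in muscle, chose the gene. WT_DR differed from WT_AL by -1.72 (SE 0.59) and KO_AL from WT_AL by 2.10 (SE 0.66), neither past the FDR of the Wald test used here. The authors' own analysis, at an FDR of 10%, counted Cdkn1a among the genes up-regulated in KO_AL liver. KO_DR against WT_DR gave -0.87 (SE 0.69, adjusted p 1.0 in the Wald test). Between tissues, the KO_DR against KO_AL difference in liver less that in muscle was -4.59 (SE 0.84), less that in brain -4.64 (SE 1.03) and less that in WAT -4.51 (SE 0.95). All 3 passed the FDR over 74901 tests, again as a description. Red blood cell markers in liver summed to 2681 FPKM in WT_AL, 3469 in WT_DR, 13569 in KO_AL and 12047 in KO_DR, and the 7 macrophage and microglia markers to 318, 163, 374 and 190 in that order. The macrophage sums were thus low in both DR groups, as Cdkn1a was. Of these 7 markers, 0 passed the FDR in KO_DR against KO_AL, 4 were lower with the smaller SE (the SD divided by the root of the number of libraries) and none was at 0. The 8 immediate early genes summed to 147, 97.4, 174 and 106 FPKM in the same order, with 3 of the 5 tested lower in KO_DR than in KO_AL by the smaller SE, 0 by the FDR of the Wald test and 1 at 0 in each group. The 10 skeletal muscle markers summed to 2.53, 13.2, 104 and 33.3 FPKM in liver, highest in KO_AL as Cdkn1a was, with 5 of 10 lower in KO_DR by the smaller SE, 0 by the FDR, and 5 of them at 0 in WT_AL. The part of these genes in the Cdkn1a result was not tested.

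In WAT the highest Cdkn1a value belonged to WT_AL, at 41.5 FPKM (23.2 to 59.7). WT_DR had 11.2 (1.88 to 20.6), KO_AL 26.1 (14.6 to 37.5) and KO_DR 22.9 (7.33 to 38.6). WT_AL and WT_DR did not overlap, and the KO groups overlapped both. WT_DR differed from WT_AL by -1.89 on the log2 scale (SE 0.68), not past the FDR, and KO_DR from WT_DR by 1.03 (SE 0.78, adjusted p 1.0 in the Wald test). B cell markers in WAT summed to 1577 FPKM in WT_AL, 412 in WT_DR, 1036 in KO_AL and 990.5 in KO_DR, and macrophage and microglia markers to 970.4, 359, 525 and 463. Both sums had the order of groups seen for Cdkn1a, and none of these markers was at 0. In WT_DR against WT_AL none of the 5 and the 7 markers passed the FDR, and with the smaller SE 0 and 1 did. Their part in the Cdkn1a values was not tested.

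Markers of other cells also differed between groups. Of the muscle sets given here, only the red blood cell markers were, like Cdkn1a, high in both KO groups and low in both WT groups. In skeletal muscle, the summed FPKM of 5 red blood cell markers was 949.8 in WT_AL, 1553 in WT_DR, 11582 in KO_AL and 20283 in KO_DR, and 2 of the 5 passed the FDR in KO_DR against WT_DR. They are the haemoglobin genes Hba-a1 (log2 difference 4.36, SE 1.34) and Hbb-bt (2.70, SE 0.77). The 10 liver markers summed to 21.2, 2637, 49.0 and 108.9 FPKM in the same order, with all 10 lower in KO_DR than in WT_DR past the FDR. The sum in WT_DR muscle was 1.97% of that in WT_DR liver, which at the liver level of Cdkn1a comes to 0.109 FPKM. The 10 adipocyte markers summed to 2141, 730.5, 2274 and 3009 FPKM. All 10 were higher in KO_DR than in WT_DR, 6 of them past the FDR. The KO_DR sum was 13.8% of that in KO_DR WAT, which at the WAT level of Cdkn1a comes to 3.17 FPKM of the 50.4 measured. Both estimates assume that carried-over tissue held Cdkn1a at its bulk level. The part of red blood cells, liver cells and adipocytes in the Cdkn1a result was not tested.

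In brain, the 8 markers of oligodendrocytes and astrocytes summed to 5225 FPKM in WT_AL, 2146 in WT_DR, 5460.1 in KO_AL and 5210.1 in KO_DR, so that WT_DR was lowest, as for Cdkn1a. Of the 8, Mag (a myelin glycoprotein) passed the FDR in KO_DR against WT_DR, rising from 82.2 to 242 FPKM (log2 difference 1.56, SE 0.45). Mbp, the most abundant of them, had 1380.4 and 3877 FPKM, a log2 difference of 1.49 (SE 1.16) that did not pass. The 10 neuron markers summed to 1615, 2106, 2444 and 2241 FPKM in the same order of groups. Red blood cell markers summed to 1032, 971, 9907 and 3475 FPKM, with all 5 higher in KO_DR than in WT_DR, 3 of them past the FDR. None of the 8, the 10 or the 5 markers was at 0 in any brain group. The part of these cells in the Cdkn1a result was not tested, and in bulk tissue fewer cells of a type and less RNA per cell cannot be told apart.

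**Figure D2:**
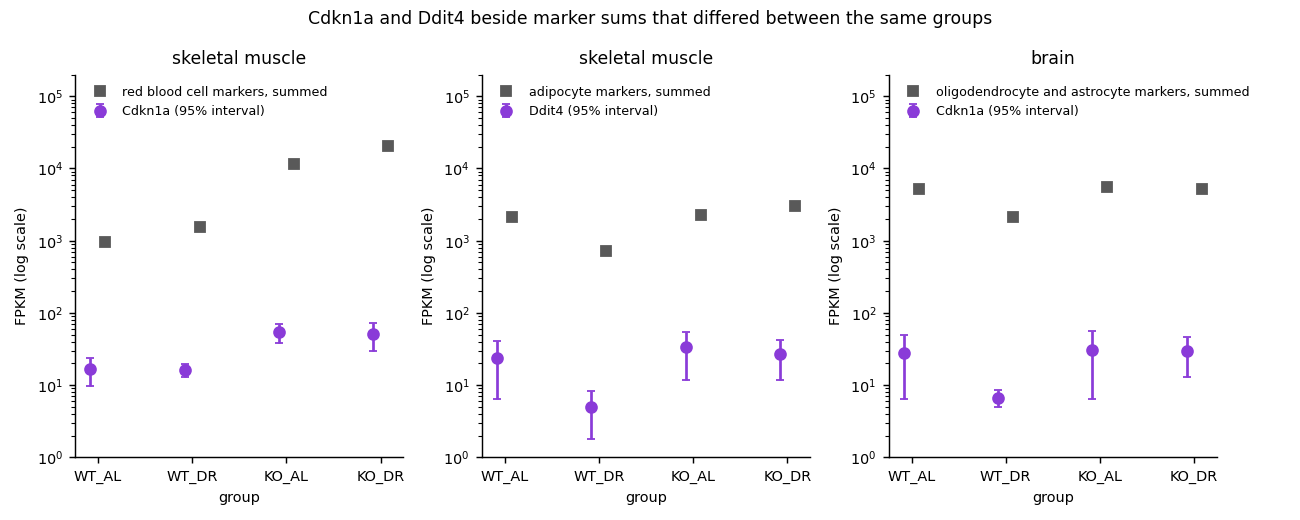
FPKM on a log scale (vertical axes) of Cdkn1a or Ddit4 (circles, bars for the authors' 95% intervals) and of summed marker genes (squares) in the 4 groups of skeletal muscle and brain, for pairs chosen after their values were seen. Red blood cell markers and Cdkn1a were both higher in the KO groups of muscle (11582 and 20283 FPKM for the markers), and WT_DR was lowest for Ddit4 with adipocyte markers in muscle and for Cdkn1a with glial markers in brain.

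Ccng1, Mdm2 and Sesn1, named above as p53 targets, did not share the Cdkn1a pattern. Ccng1 in muscle had 166 FPKM in WT_AL, 246 in WT_DR, 207 in KO_AL and 238 in KO_DR, with all 4 intervals overlapping. In brain its levels were 12.8, 11.7, 17.7 and 7.13 FPKM in that order, and KO_DR against KO_AL gave -1.31 (SE 0.48, adjusted p 0.77 in the Wald test). In liver Ccng1 lay between 6.92 and 9.21 FPKM, and in WAT the WT groups (40.8 and 41.1 FPKM) were above the KO groups (22.9 and 25.6) with overlapping intervals.

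Mdm2 varied little between groups. It had 31.5, 23.9, 23.8 and 25.2 FPKM in WT_AL, WT_DR, KO_AL and KO_DR muscle and, in the same order, 19.4, 17.6, 15.9 and 20.2 in brain. Its highest liver value was WT_AL at 19.7 FPKM, against 9.57 to 12.1 in the other groups, and in WAT it lay between 7.95 and 11.6. All 8 of its log2 differences in KO_DR against WT_DR and KO_DR against KO_AL lay between -0.34 and 0.38, with SE values from 0.65 to 1.28, and all had an adjusted p of 1.0 in the Wald test. The brain difference against WT_DR (0.20) turned to -0.03 relative to the median of all entries.

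Sesn1 was lower in both DR groups of muscle, with 21.4 FPKM in WT_DR and 22.2 in KO_DR against 41.3 in WT_AL and 35.1 in KO_AL, but the 4 intervals overlapped. The diet differences in muscle were -0.95 (SE 0.54) in WT and -0.66 (SE 0.54) in KO mice, and in WAT -0.42 (SE 0.90) and -0.64 (SE 0.58). In liver (5.74 to 7.76 FPKM) and brain (16.7 to 20.5 FPKM) its groups lay close together. No Sesn1 difference in the tested comparisons passed the FDR, and the smallest adjusted p was 1.0 in the Wald test.

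A wider list of p53 targets was read beside these genes: 29 genes such as Bax, Bbc3, Fas, Gdf15, Phlda3 and Zmat3, of which 28 were found. Over the 4 tissues of KO_DR against WT_DR and KO_DR against KO_AL, 0 of 175 tests of this list passed the FDR of the Wald test, while 5 had an unadjusted p under 0.05. The smaller SE called 11. Over all entries 0.766% of 116314 tests passed, 3.53% had an unadjusted p under 0.05 and 6.63% were called with the smaller SE, against 2.86% and 6.29% of the list for the last pair. In brain, where Cdkn1a was higher in KO_DR than in WT_DR, the median of the list was 0.46 against 0.23 over all entries, with 15 of 22 tested genes above 0. In muscle the list's median was -0.04 against 0.04 over all, with 10 of 21 above 0, and in liver against KO_AL it was -0.16 against -0.03, with 6 of 21 above 0. For p53 and its regulators (Trp53, Mdm4, Atm and others, 10 of 11 found) 0 of 50 tests passed, with 0 at an unadjusted p under 0.05 and 0 with the smaller SE. For 12 DNA repair genes, 11 of them found, the counts were 0 of 66, 0 and 0.

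**Figure D3:**
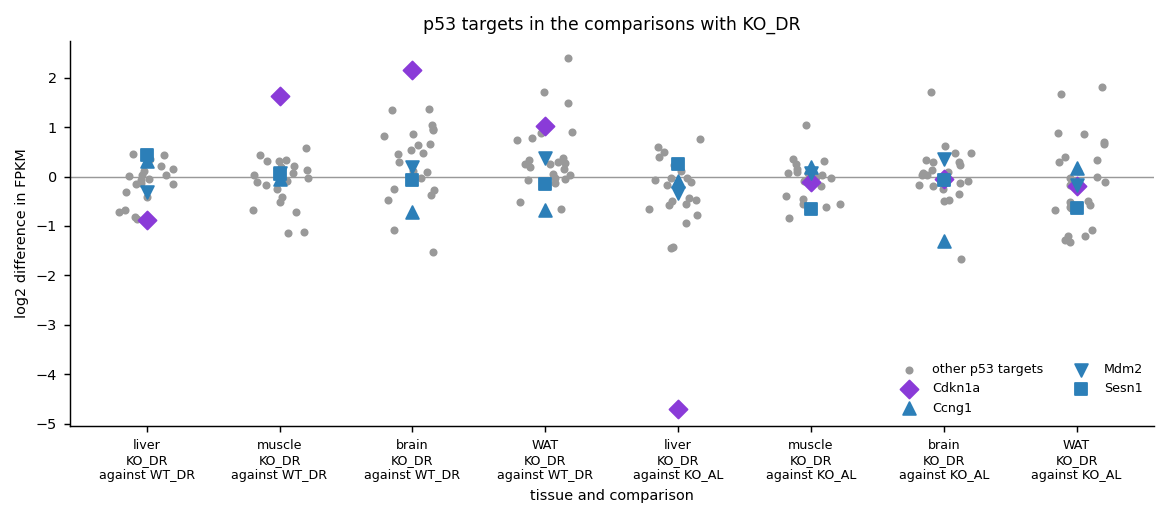
Log2 differences in FPKM (vertical axis) of p53 targets in each tissue for the comparisons of KO_DR with WT_DR and with KO_AL, with the wider list as grey points, Cdkn1a as purple diamonds and Ccng1, Mdm2 and Sesn1 in blue. Cdkn1a lies outside the range of the other targets in muscle (1.62) and brain (2.16) against WT_DR and in liver (-4.69) against KO_AL.

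Among the GADD45 genes, Gadd45b changed places between groups in liver and WAT. In liver it had 3.83 FPKM in WT_AL (0 to 7.80), 12.0 in WT_DR (4.54 to 19.5), 19.8 in KO_AL (10.9 to 28.7) and 5.49 in KO_DR (1.95 to 9.03). KO_AL did not overlap WT_AL or KO_DR. KO_DR against KO_AL gave -1.85 (SE 0.57, adjusted p 0.15 in the Wald test), KO_AL against WT_AL 2.37 (SE 0.81) and WT_DR against WT_AL 1.65 (SE 0.87). The diet differences thus had opposite signs, and KO less WT gave -3.50 (SE 1.04), with no test. In WAT Gadd45b was at 28.0 FPKM in WT_AL (17.6 to 38.4), 4.18 in WT_DR (0 to 9.77), 15.9 in KO_AL and 10.4 in KO_DR. WT_DR differed from WT_AL by -2.74 (SE 1.00), 6.70-fold, not past the FDR. In muscle the KO groups (24.8 FPKM in KO_AL and 19.3 in KO_DR) were below the WT groups (32.9 and 34.5), and KO_DR against WT_DR gave -0.84 (SE 0.48, adjusted p 1.0 in the Wald test). In brain its 4 groups lay between 5.47 and 6.70 FPKM.

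Gadd45g was low in both DR groups of liver, as Cdkn1a was. Its liver levels were 23.3 FPKM in WT_AL (6.74 to 40.0), 8.45 in WT_DR (3.28 to 13.6), 35.5 in KO_AL (18.0 to 52.96) and 10.9 in KO_DR (4.32 to 17.5). KO_DR against KO_AL gave -1.70 (SE 0.56, adjusted p 0.27 in the Wald test), with intervals that did not overlap, and WT_DR against WT_AL -1.47 (SE 0.68). In WAT both KO groups were high, with 45.1 FPKM in KO_AL (26.4 to 63.7) and 42.5 in KO_DR (15.1 to 70.0) against 18.6 in WT_AL (10.5 to 26.7) and 7.14 in WT_DR (0 to 14.7). KO_DR exceeded WT_DR there by 2.57 (SE 0.89, adjusted p 0.74 in the Wald test), 5.96-fold, and with the smaller SE this difference was called. The 8 mammary epithelium markers in WAT summed to 17.0 FPKM in WT_AL, 25.9 in WT_DR, 127 in KO_AL and 103 in KO_DR, also high in both KO groups, with 2, 3, 0 and 1 of them at 0. All 4 that could be tested in KO_AL against WT_AL passed the FDR, as did 1 of 5, Krt18, in KO_DR against WT_DR. Their part in the Gadd45g values was not tested. In muscle the highest value was KO_AL at 116 FPKM, against 64.0 in WT_AL, 46.8 in WT_DR and 69.2 in KO_DR, and in brain the values lay between 8.71 and 19.3.

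Gadd45a showed no difference past the FDR. It was at 71.7 FPKM in WT_AL, 39.7 in WT_DR, 51.3 in KO_AL and 38.7 in KO_DR muscle, so that both DR groups were below both AL groups with overlapping intervals. In liver it had 9.03 FPKM in WT_AL, 8.57 in WT_DR, 2.86 in KO_AL and 5.89 in KO_DR, so that its lowest value was that of the group in which Cdkn1a, Gadd45b and Gadd45g had their highest. In brain KO_DR was highest at 10.9 FPKM against 5.20 in WT_DR, a log2 difference of 1.07 (SE 0.64, adjusted p 0.80 in the Wald test). In WAT all groups lay between 18.6 and 25.8 FPKM.

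Ddit4 had its lowest value in WT_DR in all 4 tissues, the group that chose it in muscle. In skeletal muscle it had 23.9 FPKM in WT_AL (6.45 to 41.4), 5.01 in WT_DR (1.79 to 8.24), 33.3 in KO_AL (11.8 to 54.8) and 26.8 in KO_DR (11.7 to 42.0). Both KO intervals lay above that of WT_DR, and the WT_AL interval overlapped all of them. KO_DR exceeded WT_DR by 2.42 (SE 0.62), 5.35-fold, and WT_DR differed from WT_AL by -2.26 (SE 0.70). Both passed the FDR and both rest on the WT_DR value that chose the gene, so no p is given. KO_DR against KO_AL, which does not use WT_DR, gave -0.31 (SE 0.62, adjusted p 1.0 in the Wald test).

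In WAT the Ddit4 levels were 29.0 FPKM in WT_AL (17.6 to 40.5), 8.23 in WT_DR (0 to 17.1), 39.9 in KO_AL (20.6 to 59.1) and 29.5 in KO_DR (10.7 to 48.3), and WT_DR lay below WT_AL and KO_AL without overlap. Brain had 22.8, 15.1, 16.7 and 30.2 FPKM in the same order, and liver 3.06, 1.79, 5.43 and 3.67. The WT_DR against WT_AL differences were -1.82 (SE 0.83) in WAT, -0.59 (SE 0.60) in brain and -0.77 (SE 0.88) in liver. None of these 3 passed the FDR.

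The Ddit4 pattern in muscle moved with the adipocyte marker sums given above, which were also lowest in WT_DR. Adiponectin (Adipoq) rose from 62.9 FPKM in WT_DR to 326 in KO_DR muscle and perilipin 1 (Plin1) from 17.0 to 134, both past the FDR. At the WAT level of Ddit4, the adipocyte share of 13.8% in KO_DR muscle comes to 4.08 FPKM of the 26.8 measured, and the share of 2.49% in WT_DR muscle to 0.205 FPKM of the 5.01 measured. The liver marker share of 1.97% in WT_DR muscle comes to 0.0353 FPKM of Ddit4. These estimates take WAT and liver, at their bulk levels, as the sources and were made after the values were seen. The part of these cells in the Ddit4 result was not tested.

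Trib3 was highest in KO_DR liver. Its liver levels were 9.53 FPKM in WT_AL (3.09 to 15.97), 10.1 in WT_DR (4.95 to 15.3), 11.4 in KO_AL (5.79 to 16.9) and 20.3 in KO_DR (10.5 to 30.0), with overlapping intervals. KO_DR exceeded WT_DR by 1.00 (SE 0.51) and KO_AL by 0.83 (SE 0.50), each with an adjusted p of 1.0 in the Wald test and each called with the smaller SE. In WAT it lay between 5.64 and 8.72 FPKM and in muscle between 1.02 and 2.49. In brain all groups but WT_AL (1.08 FPKM) were under an FPKM of 1, so Trib3 was not tested there in the comparisons with KO_DR.

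Of 28 genes of the integrated stress response, to which Trib3 belongs, 3 of 203 tests passed the FDR (1.48%, against 0.766% of all entries). In the Wald test 3.94% had an unadjusted p under 0.05, near the 3.53% of all entries. The smaller SE called 7.88%, near the 6.63% of all entries. Eif4ebp1, an inhibitor of translation and mTORC1 target, rose from 47.4 FPKM in WT_DR to 135 in KO_DR muscle (log2 difference 1.51, SE 0.48, adjusted p 0.075 in the Wald test). Slc3a2, the heavy chain of amino acid transporters, rose from 8.88 to 16.4 FPKM in the same comparison (0.89, SE 0.20, adjusted p 0.00078). Fgf21, a fasting hormone of liver, fell from 96.1 FPKM in KO_AL to 18.5 in KO_DR liver, by 2.37 on the log2 scale (SE 0.52). Its direction there was that of Cdkn1a, and a link between them was not tested.

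Genes of the glucocorticoid and fasting response, to which Cdkn1a and Ddit4 are also known to respond, passed in 7 of 153 tests (4.58%, against 0.766% of all entries). In muscle 4 of the 20 tested passed the FDR in KO_DR against WT_DR, each higher in KO_DR. They were Cebpd, at 25.5 FPKM in WT_DR and 109 in KO_DR (log2 difference 2.10, SE 0.45), Mt1 (13.7 and 70.7), Pck1 (50.5 and 174) and Fkbp5 (8.06 and 17.8). WT_AL muscle had 156 FPKM of Cebpd and 31.2 of Fkbp5, above KO_DR, and 16.5 of Mt1, below it. Pck1 is also a gene of adipocytes, whose markers were higher in KO_DR than in WT_DR muscle. In WAT Fkbp5, a chaperone induced by the glucocorticoid receptor, rose from 2.66 to 18.0 FPKM (2.76, SE 0.46). In liver Zbtb16 was at 0.591 FPKM in WT_DR and 4.20 in KO_DR (2.83, SE 0.63), with 5.51 in WT_AL. Igfbp1, a FOXO1 target that insulin represses, fell in liver from 270.1 FPKM in KO_AL to 46.5 in KO_DR. Igfbp1 was thus, like Cdkn1a, higher in KO_AL liver than in KO_DR liver and in WT_AL liver (34.9 FPKM). It was the 1 gene of the 19 tested that passed the FDR in KO_DR against KO_AL liver. In KO_DR against WT_DR liver, Zbtb16 (2.83) and Cdkn1a (-0.87) had opposite signs. The part of this response in the Cdkn1a and Ddit4 values was not tested.

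Genes through which p21 acts were read next, beside the same 0.766%, 3.53% and 6.63% of all entries. Of 11 cyclin, CDK and related genes, 1 of 60 tests passed (1.67%): Ccnd2 (cyclin D2) rose from 1.55 FPKM in WT_DR to 5.35 in KO_DR muscle (log2 difference 1.79, SE 0.25, adjusted p 1.7e-10 in the Wald test). Its level in WT_AL muscle was 4.09 FPKM. Of 12 proliferation genes, 11 of them found, 1 of 52 tests passed (1.92%): Mki67 fell from 5.27 FPKM in KO_AL to 0.113 in KO_DR muscle, with 0.316 in WT_AL. The last 2 values are under an FPKM of 1. In KO_DR against KO_AL muscle 0 of the 9 tested were above 0, with a median of -1.54 against 0.03 over all entries. In KO_AL against WT_AL muscle all 9 tested were above 0, with a median of 2.21 against -0.05. In WAT, KO_DR against KO_AL, 9 of 10 were above 0, with a median of 0.47. Only 3 of these genes could be tested in muscle in each comparison without KO_AL, and 7 in WAT in each without KO_DR. A gene needs an FPKM of at least 1 in either group, so some entered through the group where they were high. That favours the sign seen, and nothing is read from these counts and medians. The 6 other CDK inhibitors gave 0 of 40 tests past the FDR, 4 at an unadjusted p under 0.05 (10.0%) and 5 with the smaller SE (12.5%). The 8 relatives of the list's genes (Sesn2, Sesn3, Ddit4l, Trib1, Trib2, Ccng2, Ccni and Mdm4) gave 0 of 60, 2 (3.33%) and 4 (6.67%). The 13 mTOR pathway genes and GADD45 partners gave 0 of 104, 1 (0.962%) and 3 (2.88%).

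Counted without Ddit4, 2 of 31 tests of the list passed the FDR in KO_DR against WT_DR, both higher: Cdkn1a in muscle (2.23% of all tested entries passed) and in brain (1.16%). In liver (0.288% of all entries) and WAT (0.283%) none passed. Over the 4 tissues, 4 of the 31 had an unadjusted p under 0.05, against 4.20% of all entries, and 8 were called with the smaller SE, against 8.42%. Ddit4 in muscle was also past the FDR, as a description. In KO_DR against KO_AL, counted without Cdkn1a, 0 of 31 tests passed the Wald test's FDR, with 3 at an unadjusted p under 0.05 (2.88% of all entries) and 5 called with the smaller SE (4.86%). The share of all entries past the FDR there was 0.611% in liver, where Cdkn1a was past it as a description, 0.500% in muscle, 0.365% in brain and 0.707% in WAT. In KO_AL against WT_AL, which the choice of genes used, 1 of 36 was past the FDR, Cdkn1a in muscle (0.681% of all entries), with backgrounds of 0.316% in liver, 0.203% in brain and 1.29% in WAT. In WT_DR against WT_AL, also used, 1 of 36 was past it, Ddit4 in muscle (1.40%), with 0.236% in liver, 0.224% in brain and 0.570% in WAT.

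**Figure D4:**
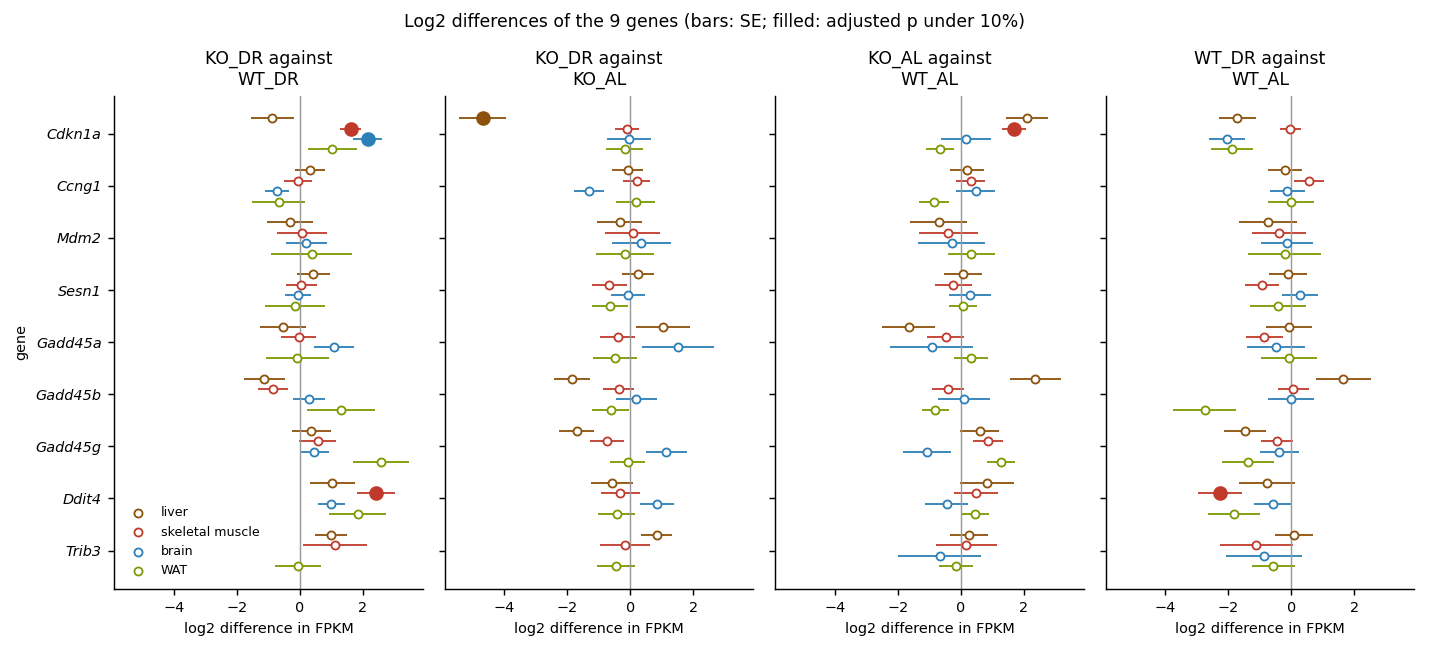
Log2 differences in FPKM (horizontal axes) of the 9 genes in the 4 comparisons, with a colour per tissue, bars for the SE and filled points where the adjusted p was under the FDR of 10%. The filled points are Cdkn1a (muscle 1.62, brain 2.16) and Ddit4 (muscle 2.42) against WT_DR, Cdkn1a in liver (-4.69) against KO_AL, Cdkn1a in muscle (1.70) for KO_AL and Ddit4 in muscle (-2.26) for WT_DR, and a p is printed for none but Cdkn1a against WT_DR.

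In WT_DR against WT_AL, the comparison that chose Ddit4, 5 of 36 differences were above 0 (13.9%), against 45.5% over all entries. The median in WAT was -0.57 against -0.17 over all entries there. All 9 genes were below 0 in WAT before the shift of all entries was taken off, and Ccng1 (0.16) and Gadd45a (0.10) were above 0 after it. In KO_DR against KO_AL, 11 of 35 were above 0 (31.4%, against 50.8% of all entries), with medians of -0.34 in liver, -0.31 in muscle, 0.27 in brain and -0.43 in WAT. In KO_DR against WT_DR, 22 of 35 were above 0 (62.9%), near the 58.1% of all entries.

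Whether the KO_DR differences varied between tissues was tested over 6 pairs of tissues. The protocol takes the 4 tissues from the same small groups of mice and the labels do not tie tissues to a mouse, so tissues may share animals, while the test treats them as independent. Against WT_DR and without Ddit4, 0 of 45 tests passed the FDR of the Wald test (0.176% of 73697 tests over all entries did), 4 had an unadjusted p under 0.05 (1.68% of all) and 4 were called with the smaller SE (2.13% of all). The nearest was Cdkn1a, with a difference in liver less that in brain of -3.03 (SE 0.83, adjusted p 0.13 in the Wald test). Against KO_AL and without Cdkn1a, 0 of 45 tests passed it (0.148% of all), 6 had an unadjusted p under 0.05 (1.91% of all) and 8 were called with the smaller SE (3.11% of all). The p values rest on the authors' intervals, not on a spread between mice measured here. With a t distribution in place of the normal reference, every call of the list, the descriptions included, was lost, and over all entries the count was 22 against 571 in KO_DR against WT_DR and 26 against 320 in KO_DR against KO_AL.

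Likeness between genes was described by Pearson's r of log2 FPKM over the 16 groups, after centring on the mean of each tissue, among 8886 entries of single genes. The groups share libraries' preparation, tissue and normalization, and no p is given. They include the groups that chose Cdkn1a and Ddit4. Nearest to Cdkn1a were Insig2 (r = 0.918), which retains the sterol sensor in the endoplasmic reticulum, Mapre3 (0.916) and Tubb2b (0.877). The liver groups of Cdkn1a, with a 25.9-fold range from KO_DR to KO_AL, weigh most in these values. Nearest to Ddit4 were H3f3b (0.898), Cebpd (0.895) and Srgn (0.889). The stress-induced factor Cebpd was low in WT_DR muscle (25.5 FPKM, against 156 in WT_AL), the group that chose Ddit4. Its r with Ddit4 and its difference of KO_DR from WT_DR in muscle both use that group, so they are not separate results. Nearest to Mdm2 were Casp2 (0.938), Prpf3 (0.933) and Tpd52 (0.883), to Ccng1 Tmco1 (0.857), Exoc4 (0.854) and D6Wsu163e (0.847), and to Sesn1 Lims1 (0.896), Pamr1 (0.889) and Gpbp1 (0.886). Of the GADD45 genes, Gadd45a was most like Gas1 (0.900), Stk38 (0.853) and Ttc5 (0.842), Gadd45b most like Arhgef10l (0.907), Eif3d (0.881) and Cep44 (0.868), and Gadd45g most like Nceh1 (0.862), Bag2 (0.828) and Pald1 (0.822). Trib3 was most like Gm20748 (0.842), Rasgrp2 (0.816) and Tmem29 (0.803). The entries compared had an FPKM of at least 1 in all 16 groups, which Trib3 itself did not reach in every brain group. Within the list the highest r was that of Gadd45g with Ddit4 (0.761), followed by Cdkn1a with Gadd45g (0.611), and the lowest that of Ccng1 with Gadd45a (-0.687). Cdkn1a had an r of 0.102 with Ccng1, 0.276 with Mdm2 and -0.03 with Sesn1.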

How the data were processed

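Poly(A) RNA libraries were sequenced on an Ion Proton. Per the labels and methods, the authors trimmed reads with cutadapt 1.5, aligned them to GRCm38 and ran Cuffdiff 2.2.1 with geometric normalisation. The deposited table holds FPKM values, 1 per entry and group, with 95% intervals. No value per library was analysed here, so depth is unknown.

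Samples were grouped by their labels. SD was taken as the upper bound less the FPKM, divided by 2. Log2 ratios were tested by a two-sided Wald test (delta-method SE, normal reference, Benjamini-Hochberg within tissue and comparison, FDR 10%) on entries with status OK, FPKM above 0 in both groups and at least 1 in one, with Python 3.11.15, numpy 2.4.6, pandas 2.3.3, scipy 1.17.1 and matplotlib 3.10.9. The script was tested on simulated data. Differences between tissues were tested the same way, adjusted over 6 pairs together.

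The 9 genes and all lists were chosen with earlier results of these data known. Named genes are the 9, listed genes past the FDR in a comparison with KO_DR (at most 6 per list, tissue and direction), the 3 entries most like a gene, and Irs1. Markers in the text beyond these, and the marker shares, were chosen after their values were seen. Alternatives, one at a time, were non-overlap of the intervals, a stricter FDR (5%), t in place of normal quantiles, log2 with 0.1 or 1 added, a filter of 5 FPKM or none, a change of at least 2-fold, centring on the median, omission of joined entries, and an SD divided by the root of the number of libraries.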

Additional observations from a re-analysis of the deposited data

Results flagged for a closer look

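The Cdkn1a difference of KO_DR from KO_AL was set apart because it passed the FDR for a difference between tissues. In liver less skeletal muscle it was -4.59 on the log2 scale, in liver less brain -4.64 and in liver less WAT -4.51. A KO_AL difference, seen in muscle, chose the gene, so these values are a description and not a test of it. All 3 rest on the KO_AL and KO_DR liver values of 78.3 and 3.02 FPKM, and none passed the FDR with a t distribution.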

How the results depend on the processing

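No paired analysis was possible because the table holds 1 pooled value per group, and for the same reason no replicate could be left out. Counts of the 9 genes past the FDR were 3 (KO_DR against WT_DR), 1 (KO_DR against KO_AL), 1 (KO_AL against WT_AL), 1 (WT_DR against WT_AL), 0 (tissue differences against WT_DR) and 3 (tissue differences against KO_AL). These counts include the values given as a description. With a t distribution all were 0. With the SD divided by the root of the number of libraries they were 10, 6, 6, 7, 5 and 11. By intervals that do not overlap they were 4 in KO_DR against WT_DR, 3 in KO_DR against KO_AL, 3 in KO_AL against WT_AL, 3 in WT_DR against WT_AL and 2 for the tissue differences against WT_DR. The 3 in WT_DR against WT_AL were Cdkn1a, Gadd45b and Ddit4 in WAT. The Ddit4 intervals in muscle overlapped there. A pseudocount of 1 gave 2 in KO_DR against KO_AL, and pseudocounts of 0.1 and 1 gave 1 each for the tissue differences against WT_DR. In WT_DR against WT_AL the count was 0 at an FDR of 5%, without the filter and after centring. The Ddit4 call in muscle rests on those choices, and it was also lost by intervals that do not overlap.

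Of the lists, the t distribution gave 0 for the integrated stress response (3), glucocorticoid response (7), cyclins (1) and proliferation (1). With the smaller SE the counts were p53 targets 11, integrated stress response 16, glucocorticoid response 36, CDK inhibitors 5, cyclins 3, proliferation 4, relatives 4 and mTOR and GADD45 partners 3. By intervals that do not overlap they were p53 targets 1, CDK inhibitors 2 and cyclins 2. Pseudocounts of 0.1 and 1 and an FPKM of at least 5 each gave 2 for cyclins, and a pseudocount of 0.1 gave 2 for proliferation. The cause of these moves was not tested.

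Centring on the median turned the sign of 7 differences that had not passed the FDR: Mdm2 in brain, KO_DR against WT_DR (-0.0289), Sesn1 in liver (-0.0838) and Gadd45b in brain (-0.0372), KO_AL against WT_AL, and, in WT_DR against WT_AL, Cdkn1a in muscle (0.0347), Gadd45b in brain (0.0749), Ccng1 in WAT (0.157) and Gadd45a in WAT (0.0981). The median of all entries had moved by 0.23 in brain (KO_DR against WT_DR), 0.16 in liver and 0.13 in brain (KO_AL against WT_AL) and -0.17 in WAT (WT_DR against WT_AL). Ordering tissues by the median over groups in place of the mean exchanged liver with brain for Cdkn1a and for Gadd45a.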
